A study of Rattus norvegicus with 13 samples.

Results

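The genes described are 9 components of the cardiac thin filament: the troponin genes Tnnt2, Tnni3 and Tnnc1, the slow skeletal troponin genes Tnni1 and Tnnt1, the tropomyosin genes Tpm1 and Tpm2, and the pointed-end genes Tmod1 and Lmod2. They were chosen by name, with earlier results of these data known. All 9 were found among the 25600 names of the 2-month table and the 38600 names of each later table. Bulk RNA-seq of rat heart gave 13 libraries in 5 groups. The sonogenetic group, ST, carried the vector AAV2/9-cTnT-MscL-G22S-mCherry, an adeno-associated virus that places a variant of the bacterial mechanosensitive channel MscL, together with the red fluorescent protein mCherry, under a cardiac troponin T promoter. The WT group is labelled with genotype WT and treatment none. There were 2 ST and 2 WT libraries at 2 months, 3 ST and 3 WT libraries at 6 months, and 3 ST libraries at 8 months, where there was no WT group. The labels call the libraries of a group biological replicates. They do not say whether the months are age or time since the virus, nor whether ultrasound was applied, and since WT hearts are labelled as untreated, the virus and the channel it carries cannot be told apart. In bulk tissue, fewer cells of a type and less RNA per cell cannot be told apart either.

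In heart muscle the thin filament is an actin polymer along which tropomyosin lies end to end, with a troponin complex on each tropomyosin. Troponin C (Tnnc1) binds calcium, troponin I (Tnni3) holds the filament in its inhibited state until calcium binds, and troponin T (Tnnt2) ties the complex to tropomyosin. Tropomodulin (Tmod1) caps the pointed end of the filament, while leiomodin 2 (Lmod2) acts at the same end to lengthen it, and loss of leiomodin 2 in mice shortens thin filaments and causes dilated cardiomyopathy. The cardiac troponins T and I serve as blood markers of heart muscle injury, and the Tnnt2 promoter is widely used to restrict viral transgenes to cardiomyocytes.

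Because the transgene is driven by a cardiac troponin T promoter, the rat Tnnt2 promoter is shown with those of 3 other members that bear on the results below. The windows are 300 bases around an annotated start in RefSeq's GRCr8 assembly, a build other than the one listed for these files, and 8 of the 9 members had an entry (Tnnc1 had none). Tnnt2 had 2 windows, of which the upstream one is shown. The vector's own promoter was not read from any file. Capitals mark matches to a searched motif on either strand.
Tnnt2, chr13:49818873-49819172, plus strand: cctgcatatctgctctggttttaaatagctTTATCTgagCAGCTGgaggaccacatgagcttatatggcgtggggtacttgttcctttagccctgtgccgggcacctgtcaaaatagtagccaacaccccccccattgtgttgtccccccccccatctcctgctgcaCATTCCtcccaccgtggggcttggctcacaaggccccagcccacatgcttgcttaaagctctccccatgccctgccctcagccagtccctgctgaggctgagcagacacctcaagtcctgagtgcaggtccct
Tnni3, chr1:78342321-78342620, plus strand: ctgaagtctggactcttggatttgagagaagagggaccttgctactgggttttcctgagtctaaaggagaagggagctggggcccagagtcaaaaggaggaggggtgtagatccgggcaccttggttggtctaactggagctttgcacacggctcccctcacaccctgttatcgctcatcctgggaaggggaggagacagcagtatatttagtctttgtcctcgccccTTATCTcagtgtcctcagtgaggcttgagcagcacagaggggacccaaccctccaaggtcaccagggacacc
Tpm1, chr8:76543366-76543665, minus strand: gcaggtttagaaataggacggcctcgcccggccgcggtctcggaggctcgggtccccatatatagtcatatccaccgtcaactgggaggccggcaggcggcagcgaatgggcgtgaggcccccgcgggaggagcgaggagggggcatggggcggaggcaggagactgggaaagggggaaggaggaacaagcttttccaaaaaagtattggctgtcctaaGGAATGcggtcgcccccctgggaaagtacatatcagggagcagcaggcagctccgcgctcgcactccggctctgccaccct
Lmod2, chr4:54032724-54033023, plus strand: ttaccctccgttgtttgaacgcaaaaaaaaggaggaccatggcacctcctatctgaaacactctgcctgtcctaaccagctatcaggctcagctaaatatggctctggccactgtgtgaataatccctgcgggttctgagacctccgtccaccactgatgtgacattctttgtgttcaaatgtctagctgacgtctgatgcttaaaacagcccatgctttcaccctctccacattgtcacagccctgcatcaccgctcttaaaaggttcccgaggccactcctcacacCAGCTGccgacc
The letters CATTCC, the core of the M-CAT element first described in the chicken cardiac troponin T promoter, began 83 bases before the start in Tnnt2 and, on the opposite strand, 31 bases before it in Tpm1. They occur in 14.2% of the 33469 promoter windows of the table. The GATA letters AGATAA lay on the opposite strand in Tnnt2 and Tnni3 and occur in 11.6% of windows. The E-box letters CAGCTG lay in Tnnt2 and, after the start, in Lmod2, and occur in 15.1% of windows. TATAAA, present in 14.2% of windows, was in none of these 4 windows, and neither were the CArG box (1.64% of windows) or the MEF2 site (3.29% of windows), which were searched by name; the motifs did not overlap each other. In the same annotation Tnni3 and Tnnt1 are direct neighbours on chromosome 1, and Tnni1 and Tnnt2 lie on chromosome 13 with 1 gene, Lad1, between them.

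Library totals ran from 4.70 to 11.3 M counts. The 2-month libraries differ in kind from the later ones: they list mitochondrially encoded genes at 14.8% to 18.1% of counts, and Ttn (titin) holds 8.09% to 9.99% of their counts, against 0.437% to 0.550% later. Levels are therefore counts per M (CPM, TMM-scaled) set side by side within the 2-month table or across the later tables, and never between these sets. Month, table and any batch cannot be told apart between 6 and 8 months. The 2 libraries of a 2-month group differed by a chi-square of 12.1 per gene in ST hearts and 7.68 in WT hearts. Within the 6-month groups 1 library each stood apart from the others. ST replicate 2 differed from the other ST libraries by a chi-square of 6.89 and 8.67 per gene, against 1.93 between those 2, and WT replicate 1 differed from the other WT libraries by 8.49 and 7.51, against 2.13. The tissue label matched its markers: 14 of 14 cardiomyocyte markers were listed in the later tables and none was at 0 in any group. Skeletal muscle markers summed to at most 21.0 CPM in any library, with Pvalb and Myog at 0 in all libraries.

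**Figure D1:**
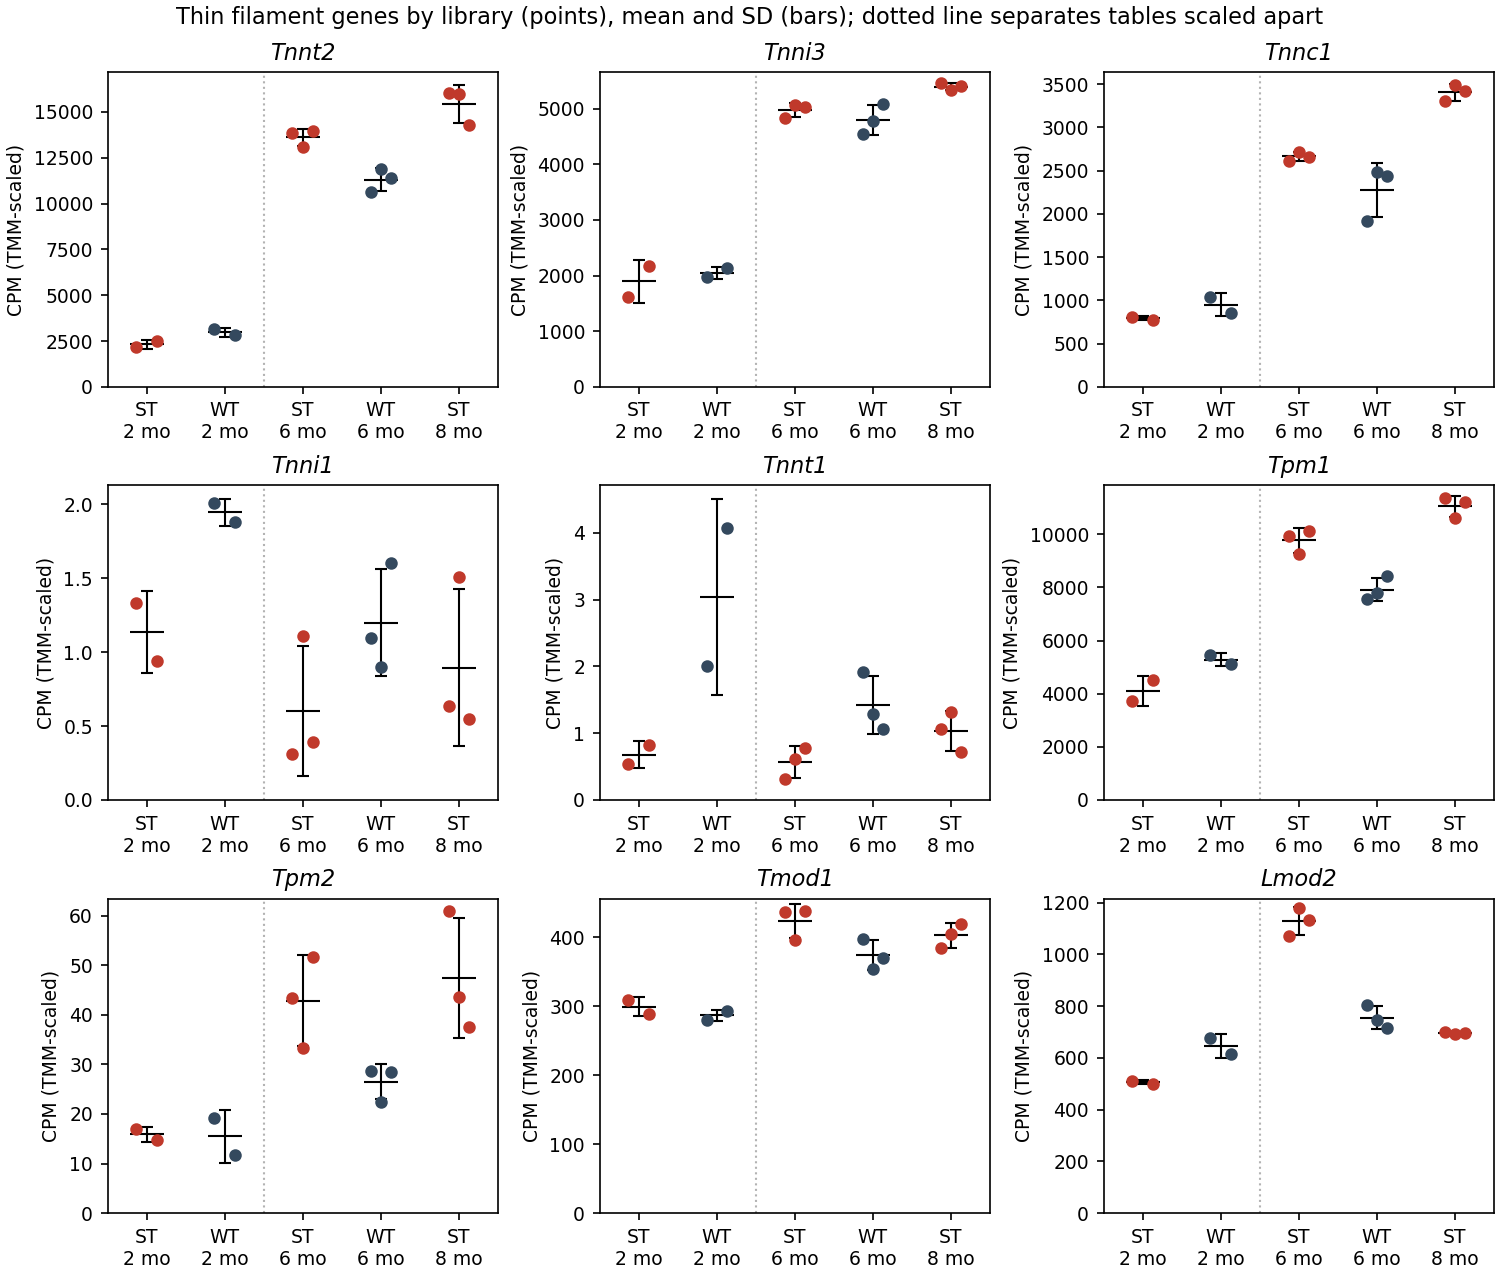
Level of each thin filament gene in every library, in TMM-scaled CPM on axes that start at 0 (ST red, WT dark, mean and SD in black, 2 or 3 libraries a group). At 6 months the ST points of Tnnt2, Tnnc1, Tpm1, Tpm2 and Lmod2 lie above the WT points, as in 25.2% of genes tested. The 8-month ST points of Lmod2 lie below both 6-month groups.

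At 2 months 1 of the 9 members, Tnnt1, passed the test, as lower in ST than in WT hearts. Tnnt2 stood at 2156 and 2479 CPM in ST hearts, against 3132 and 2801 CPM in WT hearts, a log2 fold change of -0.36 (SE 0.142, adjusted p = 0.182 by edgeR's quasi-likelihood test). Tpm1 stood at 3712 and 4515 CPM in ST hearts, against 5447 and 5101 CPM in WT hearts (log2 fold change -0.36, SE 0.148). Lmod2 stood at 512 and 499.8 CPM in ST hearts, against 677 and 613 CPM in WT hearts (log2 fold change -0.35, SE 0.129). In 6 members, Tnnt2, Tnnc1, Tpm1, Tnni1, Tnnt1 and Lmod2, both ST libraries lay below both WT libraries, which was so for 24.1% of all genes tested, with 24.8% the other way and 48.9% in either direction. Over all genes tested, 4.8% of 12121 differed in this comparison, with 2.7% higher and 2.1% lower in ST hearts. At an unadjusted p under 0.05, Tnnt2, Tpm1, Tnnt1 and Lmod2 were lower, 4 of 9 members, against 18.6% of all genes in either direction. The median log2 fold change was -0.35 over the members, against -0.000438 over all genes. Tnni3 (1619 and 2169 CPM in ST hearts, against 1971 and 2127 CPM in WT hearts), Tpm2 and Tmod1 overlapped between the groups, and their log2 fold changes of -0.11, 0.02 and 0.06 were each smaller than their SE. With 2 libraries a group the calls rest on few samples. In one fit over all 5 groups, or with scaling by cardiomyocyte markers (chosen after seeing the data), Tnnt2, Tpm1 and Lmod2 passed as lower. Their log2 fold changes there ran from -0.35 to -0.49. The fit over all 5 groups pools the 2-month libraries with later ones that differ in kind, and it called 1237 of all genes. With marker scaling most calls over all genes were lower, and the median of all genes fell as well. In the marker sum Ttn alone held 57.0% in ST hearts and 51.8% in WT hearts of 2 months. Ttn was itself higher in both ST libraries than in both WT libraries (log2 fold change 0.26, SE 0.165, not past the threshold). Without ST replicate 2, 1 ST library is left against 2 WT libraries, so the spread rests on the WT libraries alone. That ST library had Tnnt2 (2156 CPM) and Tpm1 (3712 CPM) below both WT libraries.

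At 6 months, of the 7 members with enough counts to be tested, 4 rose in ST hearts and 0 fell by edgeR. They were Lmod2, Tpm2, Tpm1 and Tnnt2. Of 13253 genes tested 40% passed, with 19.9% higher and 20.1% lower, so many genes beside the members changed. At an unadjusted p under 0.05, 6 members were higher and 0 lower, against 48.5% of all genes in either direction, and DESeq2 called 0 members lower. The median log2 fold change of the 7 members was 0.27. Lmod2 stood at 1072, 1179 and 1133 CPM in ST hearts, against 803, 746 and 716 CPM in WT hearts, a log2 fold change of 0.58 (SE 0.0662, adjusted p = 3.49e-05, edgeR). Tnnt2 stood at 13830.0, 13099 and 13935 CPM in ST hearts, against 10648, 11881 and 11402 CPM in WT hearts (log2 fold change 0.27, SE 0.0550, adjusted p = 0.00221, edgeR). Tpm1 stood at 9931, 9243 and 10134 CPM in ST hearts, against 7569, 7775 and 8410.0 CPM in WT hearts (log2 fold change 0.31, SE 0.0582, adjusted p = 0.00146, edgeR). In all 3 genes each ST library was above each WT library, as it was in 25.2% of genes tested, with 26.4% the other way and 51.7% in either direction.

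Tpm2, the beta-tropomyosin gene of skeletal and smooth muscle, stood at 43.5, 33.3 and 51.7 CPM in ST hearts, against 28.7, 22.4 and 28.6 CPM in WT hearts. Its log2 fold change of 0.69 (SE 0.151, adjusted p = 0.00355, edgeR) was the highest among the tested members, with the ST libraries spread over a wider range than the WT libraries. Smooth muscle markers moved in the same comparison: 7 of 10 were higher and 0 lower, with a median log2 fold change of 0.46, and their summed level ran from 3234 to 3588 CPM in ST hearts and from 2659 to 2861 CPM in WT hearts. They included Acta2 (smooth muscle actin, log2 fold change 1.27), Tagln (transgelin, 1.37) and Cnn1 (calponin, 2.83), with none of the 10 at 0 in either group. Cnn1 was near the floor of 3 counts in WT hearts, at 0.956, 0.258 and 0.400 CPM. Des, the desmin gene, which cardiomyocytes also express, held 73.9% to 74.6% of that sum in ST hearts and 75.0% to 75.6% in WT hearts. Without Des the sum ran from 822 to 935 CPM in ST hearts and from 656 to 715 CPM in WT hearts. Among the ST libraries replicate 2 had the lowest Tpm2 and also the lowest Acta2 (56.3 CPM, against 84.2 and 87.0 CPM in the others). The part of these markers in the change of Tpm2 was not tested.

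The remaining troponin genes moved less. Tnnc1 stood at 2614, 2719 and 2664 CPM in ST hearts, against 1918, 2479 and 2443 CPM in WT hearts (log2 fold change 0.23, SE 0.0897, adjusted p = 0.0621, edgeR); WT replicate 1, which stands apart over all genes, is the low value, and without it the log2 fold change was 0.11. Tnni3 stood at 4826, 5065 and 5022 CPM in ST hearts, against 4540.0, 4768 and 5078 CPM in WT hearts, and the groups overlapped (log2 fold change 0.06, SE 0.0579, with a 95% interval from -0.06 to 0.17). Tmod1 stood at 437, 396 and 438 CPM in ST hearts, against 397, 354 and 370.3 CPM in WT hearts (log2 fold change 0.18, SE 0.0698, adjusted p = 0.0545, edgeR). Tnnc1 passed the threshold under 8 of 16 alternatives and Tmod1 under 6 of 16. Tnnt2, Tpm1, Tpm2 and Lmod2 passed under all 16, including without ST replicate 2 (log2 fold changes 0.30, 0.35, 0.85 and 0.55) and without WT replicate 1 (0.22, 0.27, 0.74 and 0.62). The summed level of the cardiomyocyte markers ran from 98534 to 107033 CPM in ST hearts and from 109696 to 116701 CPM in WT hearts, with 3 of 14 higher and 1, Myh6, lower; Myh6 alone held 38.4% of that sum in ST hearts and 47.6% in WT hearts. Scaled to that sum, all 7 members passed as higher. That scaling raised genes in general: 5830 of all genes passed, most of them higher, and the median of all genes rose.

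**Figure D2:**
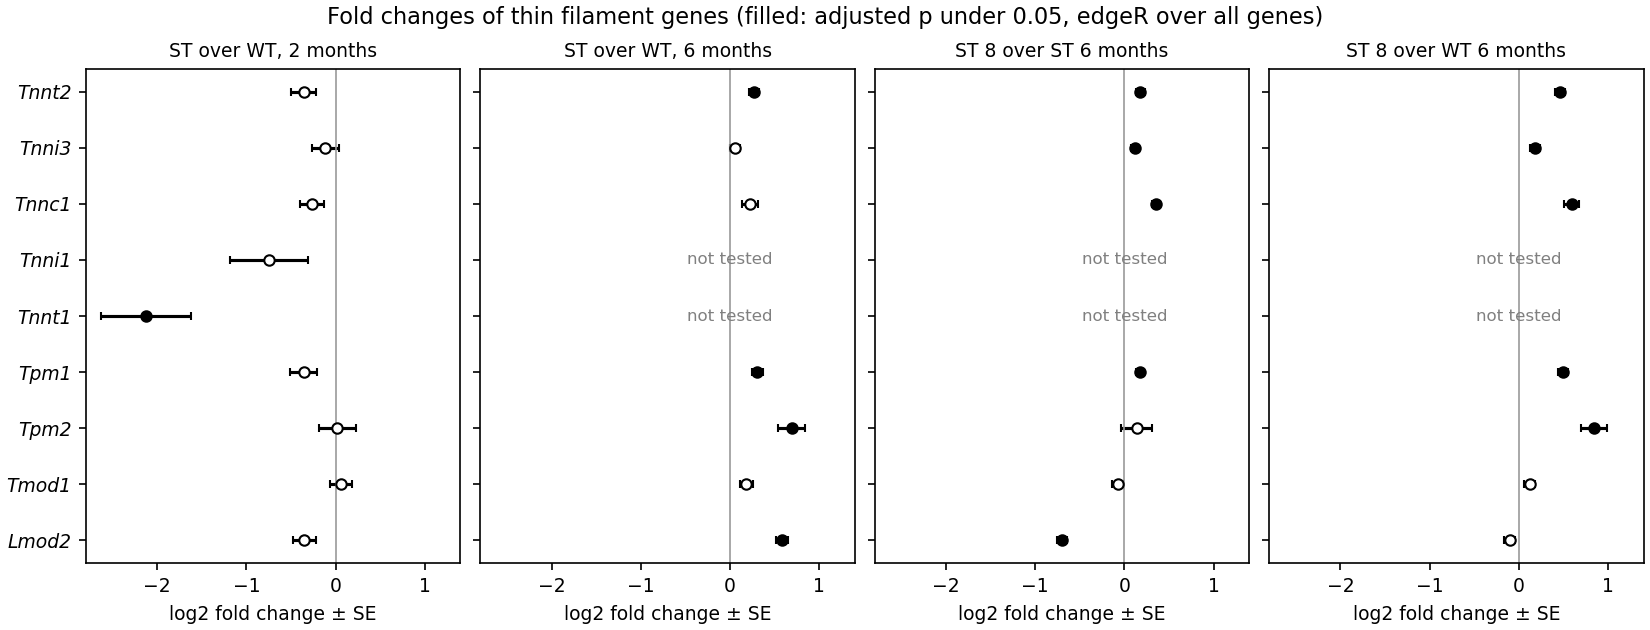
Log2 fold change with its SE for each member in 4 comparisons (filled circles passed an adjusted p of 0.05 over all genes by edgeR, open circles did not). The pointed-end gene Lmod2 runs from 0.58 at 6 months (ST over WT) to -0.70 in ST hearts of 8 over 6 months, whereas Tnnt2, Tnnc1 and Tpm1 lie above 0 in both.

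The ST effect differed between the time points for 4 members. The difference, the effect at 6 months minus that at 2 months, was 0.92 for Lmod2 (SE 0.121, adjusted p = 6.71e-05), 0.65 for Tpm1 (SE 0.119, adjusted p = 0.00108), 0.62 for Tnnt2 (SE 0.112, adjusted p = 0.00108) and 0.48 for Tnnc1 (SE 0.153, adjusted p = 0.0331), all on the log2 scale by an edgeR interaction term. Over all genes 22.2% of 12658 passed this test, with 10.2% higher, with 12% lower, and 35.3% had an unadjusted p under 0.05. The median difference was -0.02, against 0.62 over the 9 members. Tpm2, at 0.67 (SE 0.285), had an adjusted p of 0.106 by edgeR, and Tnni3 (0.16, SE 0.139) and Tmod1 (0.11, SE 0.124) did not pass. The difference of Tnnc1 passed under 13 of 20 alternatives and not without WT replicate 1 of 6 months (0.37, adjusted p = 0.0538, edgeR), whereas those of Tnnt2, Tpm1 and Lmod2 passed under all 20. Without ST replicate 2 of 6 months the difference of Tpm2 passed as well (0.82, adjusted p = 0.0259, edgeR).

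In ST hearts the 8-month libraries set Lmod2 apart from the troponins. Lmod2 fell to 701, 694 and 695 CPM at 8 months, against 1072, 1179 and 1133 CPM at 6 months (log2 fold change -0.70, SE 0.0541, adjusted p = 6.88e-07, edgeR), so that each 8-month library lay below each 6-month library of either group. Against WT hearts of 6 months (803, 746 and 716 CPM) its log2 fold change was -0.10 (SE 0.0612, adjusted p = 0.209, edgeR), with a 95% interval from -0.22 to 0.02. It passed as lower under 1 of 16 alternatives, scaling by library size only (-0.17, adjusted p = 0.0390, edgeR). Tmod1, which caps the end that Lmod2 extends, stood at 384, 405 and 419.9 CPM at 8 months, and overlapped with both 6-month groups (log2 fold change -0.07, SE 0.0614, over ST and 0.12, SE 0.0654, over WT).

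The troponin complex and Tpm1 were instead higher at 8 months. Tnnc1 stood at 3304, 3494 and 3421 CPM in ST hearts of 8 months, against 2614, 2719 and 2664 CPM in ST hearts of 6 months (log2 fold change 0.35, SE 0.0447, adjusted p = 5.22e-05, edgeR) and 1918, 2479 and 2443 CPM in WT hearts of 6 months (0.59, SE 0.0818, adjusted p = 4.34e-05, edgeR). Tnnt2 stood at 16047, 15990.1 and 14265 CPM at 8 months, with a log2 fold change of 0.18 (SE 0.0481, adjusted p = 0.0103, edgeR) over ST hearts and of 0.46 (SE 0.0583, adjusted p = 1.81e-05, edgeR) over WT hearts of 6 months. Tpm1 stood at 11348, 10603 and 11194 CPM at 8 months, with a log2 fold change of 0.18 (SE 0.0428, adjusted p = 0.00584, edgeR) over ST hearts and of 0.49 (SE 0.0538, adjusted p = 3.84e-06, edgeR) over WT hearts of 6 months. In these 3 genes each 8-month library was above each 6-month library of either group.

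Tnni3, which did not pass at 6 months, stood at 5453, 5328 and 5398 CPM at 8 months, above all 6-month libraries, but by a small margin (log2 fold change 0.12, SE 0.0406, adjusted p = 0.0379, over ST hearts and 0.18, SE 0.0551, adjusted p = 0.0178, over WT hearts, edgeR). The difference from ST hearts was lost under 10 of 16 alternatives, among them DESeq2 (adjusted p = 0.115), and the difference from WT hearts under 4 of 16. Tpm2 stood at 60.9, 43.6 and 37.6 CPM at 8 months, overlapping with ST hearts of 6 months (log2 fold change 0.14, SE 0.171) and above all WT libraries of 6 months (0.84, SE 0.146, adjusted p = 0.000354, edgeR). Of 9 smooth muscle markers tested in ST hearts of 8 over WT hearts of 6 months, 4 were higher and 1 lower (median 0.23). Acta2 (0.89), Myh11 (smooth muscle myosin, 0.95) and Tagln (1.21) were among the higher ones, and Synpo2 (-0.52) was the lower one. In ST hearts of 8 over 6 months 0 of 10 were higher and 2 lower (median -0.21), Synpo2 (-0.84) and Des (-0.25). Replicate 1 of 8 months, which held the highest Tpm2, also held the highest Acta2, at 102 CPM, against 35.9 and 37.9 CPM in the other 8-month libraries, and the highest Myh11, at 198 CPM, against 74.3 and 74.8 CPM. Without it the log2 fold change of Tpm2 over WT hearts was 0.63 (adjusted p = 0.00178, edgeR). At 2 months the library with the higher Tpm2 had instead the lower Myh11 and, by a small margin, the lower Acta2 in each group. In WT hearts Tpm2 was at 19.2 and 11.8 CPM, with Myh11 at 41.2 and 54.7 CPM. In ST hearts Tpm2 was at 17.0 and 14.8 CPM, with Myh11 at 59.9 and 70.1 CPM. The relation of Tpm2 to these markers was not tested. Of the 7 members tested, 4 rose and 1 fell in ST hearts of 8 against 6 months, where 39.6% of 12931 genes passed, 19.1% higher and 20.5% lower, and 48% had an unadjusted p under 0.05. The 2 groups did not overlap in 51.1% of these genes, 25.9% higher and 25.2% lower. Against WT hearts of 6 months 5 rose and 0 fell by edgeR, with 5 higher and 0 lower at an unadjusted p under 0.05, where 33.9% of 13095 genes passed, 17.8% higher and 16.1% lower, and 43.6% had an unadjusted p under 0.05. There the groups did not overlap in 46.8% of genes, 22.5% higher and 24.3% lower. These comparisons share libraries with the 6-month comparison and with each other, so their values are not independent. Without ST replicate 2 of 6 months, Tnnt2 (0.15), Tnni3 (0.13), Tnnc1 (0.37), Tpm1 (0.14) and Lmod2 (-0.66) still passed in ST hearts of 8 against 6 months. Without WT replicate 1, Tnnt2 (0.41), Tnni3 (0.13), Tnnc1 (0.47), Tpm1 (0.45) and Tpm2 (0.89) still passed against WT hearts, and Tmod1 passed as well (0.16, adjusted p = 0.0444, edgeR). With scaling by cardiomyocyte markers, Tnnt2 (0.08, adjusted p = 0.331, edgeR) and Tpm1 (0.08, adjusted p = 0.343, edgeR) no longer passed in ST hearts of 8 against 6 months, and Tnnt2 did not pass there without ST replicate 1 (adjusted p = 0.0621, edgeR) or replicate 2 of 8 months (adjusted p = 0.0651, edgeR).

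The slow skeletal isoforms had few counts; Tnni1 is the troponin I gene of the fetal heart, which Tnni3 replaces after birth. Tnni1 had 2 to 18 counts and Tnnt1 2 to 26 counts in a library, and neither reached the test at 6 or 8 months. At 2 months Tnnt1 had 6 and 7 counts (0.533 and 0.824 CPM) in ST hearts, against 18 and 26 counts (2.01 and 4.07 CPM) in WT hearts, a log2 fold change of -2.13 (SE 0.505, adjusted p = 0.0217, edgeR). That call was lost with DESeq2 (adjusted p = 0.105), without ST replicate 1 (adjusted p = 0.139, edgeR) and without WT replicate 2 (adjusted p = 0.276, edgeR). At 6 months Tnnt1 had 2, 5 and 6 counts in ST hearts, against 14, 10 and 8 counts in WT hearts. Its CPM ratio from summed counts was 0.381 (0.184 to 0.747, 95% for counting error only, without the spread between libraries). Fitted without the filter on low counts, its log2 fold change was -1.25 (SE 0.493, adjusted p = 0.0589, edgeR), not past the threshold. As a share of the pair, Tnnt1 was 0.00418% ± 0.00176 of the Tnnt1 and Tnnt2 counts in ST hearts of 6 months and 0.0127% ± 0.00459 in WT hearts (SD, n = 3 each), with no overlap and an exact two-sided permutation p of 0.1, the smallest that 3 against 3 libraries can give. Tpm2 was 0.434% ± 0.0741 of the tropomyosin counts in ST hearts of 6 months and 0.334% ± 0.0451 in WT hearts (SD, n = 3 each; exact permutation p = 0.2). Of 12 such exact tests over 3 shares and 4 comparisons, none had an adjusted p under 0.444; with 2 against 2 libraries the smallest possible p is 0.333. These are shares of counts, not corrected for transcript length.

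The transgene was set beside Tnnt2, the gene that the vector's promoter is named for. The MSCL row had 127 and 94 counts in the ST libraries of 2 months, 1321, 767 and 1667 counts in those of 6 months and 752, 610 and 1003 counts in those of 8 months. That row is spelled MSCL-G22S at 2 months and MSCL_G22S later. It had 0 counts in all 5 WT libraries, which allows up to 0.168 transgene counts per 1000 Tnnt2 counts in the WT library with the fewest Tnnt2 counts. mCherry, listed in the 2-month table, had 252 and 220 counts in ST hearts and 1 and 0 counts in WT hearts. Per 1000 Tnnt2 counts, the transgene gave 5.23 and 4.46 in ST hearts of 2 months, 14.7, 7.19 and 15.6 in those of 6 months and 9.91, 7.17 and 12.8 in those of 8 months. The 2-month values are not compared with the later ones, since ratios within a library also differ between these sets. Tnnt2 per 100 Tpm1 counts averaged 56.2 in WT hearts of 2 months and 143 in WT hearts of 6 months. Among the 6-month ST libraries the transgene spanned 2.31-fold by library total while Tnnt2 spanned 1.06-fold, and at 8 months the spans were 1.56-fold and 1.15-fold. At 2 months the transgene spanned 1.02-fold and Tnnt2 1.15-fold. The 6-month span of the transgene rests on the low library, replicate 2, which stands apart over all genes: without it the transgene spanned 1.06-fold and Tnnt2 1.00-fold. At 8 months the transgene spanned 1.56-fold, 1.12-fold and 1.38-fold without replicate 1, 2 and 3 in turn. For Tnnt2 these spans were 1.14-fold, 1.15-fold and 1.00-fold. Replicate 2, the lowest in the transgene at 8 months, did not stand apart over all genes. Leaving out the lowest library can only narrow a span. Between 8 and 6 months the transgene per 1000 Tnnt2 counts averaged 9.95 ± 2.79 and 12.5 ± 4.64 (SD, n = 3 each), a difference within the spread (exact two-sided permutation p = 0.4, smallest possible 0.1). No correlation is given, since each ST group holds 2 or 3 libraries.

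**Figure D3:**
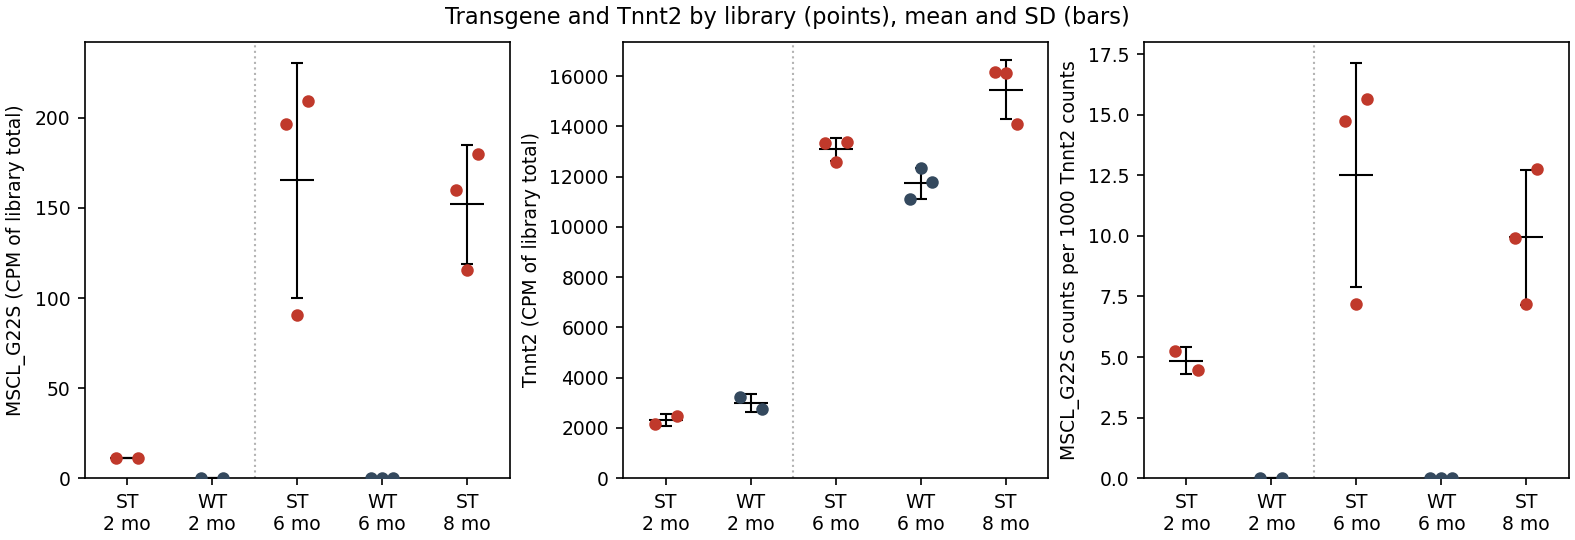
Transgene and Tnnt2 by library, in CPM of the library total, and the transgene per 1000 Tnnt2 counts (points, with mean and SD; ST red, WT dark). The 2-month points, left of the dotted line, are not compared with the later ones. WT points of the transgene lie at 0, and the 6-month ST points of the transgene span 2.31-fold, or 1.06-fold without the low point of replicate 2.

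Ratios within a library do not depend on scaling between libraries. They were picked after the values were seen and are given without a test. Lmod2 stood at 245, 298 and 259 counts per 100 Tmod1 counts in ST hearts of 6 months, against 202, 211 and 193 in WT hearts. At 2 months it stood at 166 and 173 per 100 Tmod1 counts in ST hearts, against 241 and 209.6 in WT hearts, and at 8 months at 183, 171 and 166 in ST hearts. For this pair ST libraries were above WT libraries at 6 months and below them at 2 months, with no overlap at either time. Tnnt2 per 100 Tpm1 counts did not separate ST from WT at either time: the values were 139, 142 and 138 in ST hearts of 6 months, against 141, 153 and 136 in WT hearts, and 58.1 and 54.9 in ST hearts of 2 months, against 57.5 and 54.9 in WT hearts. Tnni3 was lower relative to Tpm1, at 48.6, 54.8 and 49.6 per 100 Tpm1 counts in ST hearts of 6 months, against 60.0, 61.3 and 60.4 in WT hearts, and at 48.0, 50.2 and 48.2 in ST hearts of 8 months. At 2 months the ST libraries were instead the higher ones, at 43.6 and 48.0 per 100 Tpm1 counts, against 36.2 and 41.7 in WT hearts. In RefSeq's annotation Lmod2 overlaps the noncoding gene LOC108350676 and Tmod1 overlaps Tstd2, and whether counting used strand is not stated by the labels. LOC108350676 had 3.64 to 4.16 counts per 100 Lmod2 counts in ST hearts of 6 months and 10.8 to 11.2 in WT hearts. The ratio was thus lower in ST hearts, and it was 6.34 to 8.78 in ST hearts of 8 months. By itself LOC108350676 had 253, 400 and 318 counts in ST hearts of 6 months, against 659, 627 and 595 in WT hearts. Tmod1 had fractional counts in 11 of 13 libraries, and the other 8 members in none, beyond a tolerance of 0.01.

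**Figure D4:**
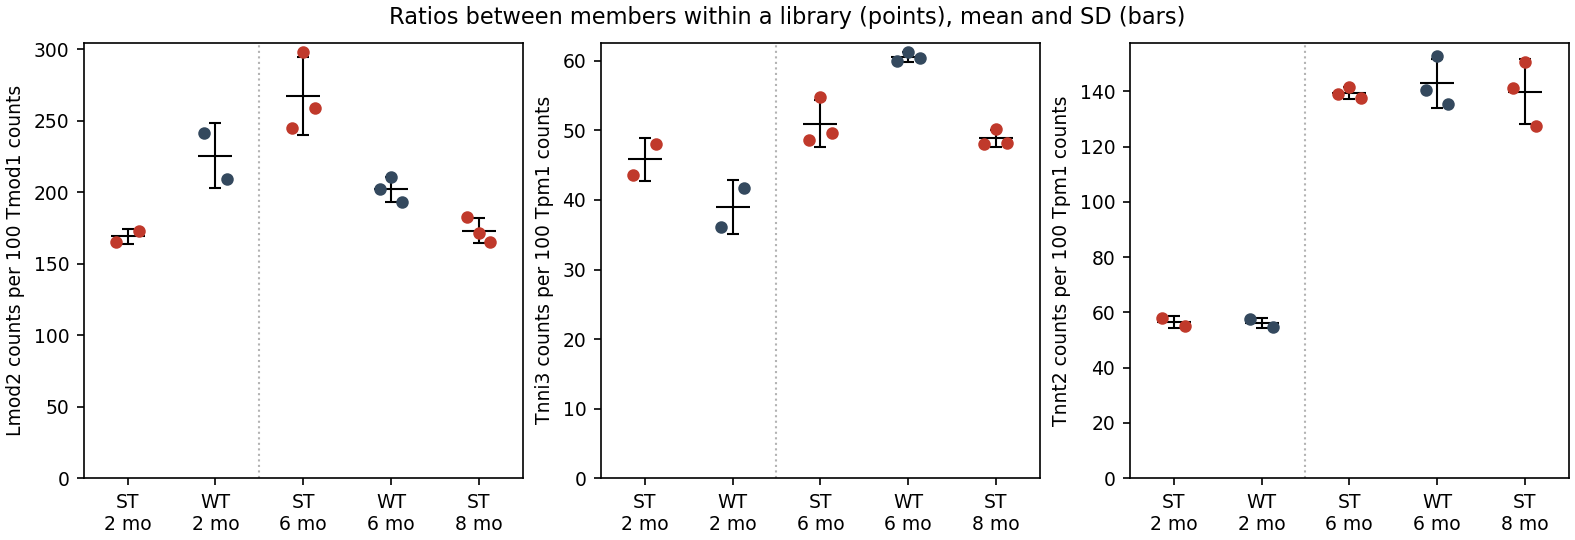
Counts of one member per 100 counts of another in each library (points, with mean and SD; ST red, WT dark; the dotted line separates the 2-month table from the later ones). Lmod2 per 100 Tmod1 is higher in ST than in WT hearts at 6 months and lower at 2 months, and Tnni3 per 100 Tpm1 is 48.6 to 54.8 in ST hearts of 6 months, against 60.0 to 61.3 in WT hearts.

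Among 28 other thin filament and Z-disc genes tested, 15 were higher and 3 lower in ST hearts at 6 months, with a median log2 fold change of 0.26, against -0.00160 over all genes, of which 40% passed. Xirp1, an actin-binding gene of the intercalated disc, averaged 1047 ± 105 CPM in ST hearts and 248 ± 4.38 CPM in WT hearts (SD, n = 3 each; log2 fold change 2.08), and Flnc, filamin C, averaged 1444 ± 130.2 CPM in ST hearts and 519.7 ± 14.0 CPM in WT hearts (1.48). Csrp3, the muscle LIM protein gene, rose by 0.75 and Tcap, the titin cap gene, fell by 0.96, both on the log2 scale. In ST hearts of 8 against 6 months 2 were higher and 10 lower (median -0.17), a share of calls near the 39.6% of all genes, with Xirp1 at -2.36 and Flnc at -1.59. At 2 months 1 of 28, the skeletal actin gene Acta1 (-1.33), passed, as lower (median -0.08), against 4.8% of all genes. Against WT hearts of 6 months, 11 were higher and 6 lower in ST hearts of 8 months, where 33.9% of all genes passed, among them Acta1 (1.22) and Tmod3, a tropomodulin found in many tissues (0.87).

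In the next lists the same shares over all genes apply: 4.8% at 2 months, 40% at 6 months, and at 8 months 39.6% over ST and 33.9% over WT hearts of 6 months. Of 12 thick filament genes tested at 6 months 4 were higher and 3 lower (median 0.01): the beta-myosin gene Myh7 rose by 2.51 and the alpha-myosin gene Myh6 fell by 0.46 on the log2 scale. In ST hearts of 8 against 6 months 5 were higher and 3 lower (median 0.10), with the ventricular light chain gene Myl2 at 0.56 and Myh7 at -1.71. At 2 months 2 of 12, Myh7b (-0.56) and Myl4 (-1.53), were lower (median -0.29). Among 12 kinases and phosphatases that act on troponin or its partners, 3 were higher and 4 lower at 6 months (median -0.06), with Ppp2ca, a catalytic subunit of phosphatase 2A, at 0.99 and the kinase gene Stk4 at -0.69. In ST hearts of 8 over 6 months 1 was higher and 5 lower (median -0.09), with Ppp2ca at -0.73 and the kinase gene Prkce at -1.08. Over WT hearts of 6 months 1, Ppp2ca (0.26), was higher and 4 lower (median -0.16). At 2 months 0 of 11 passed.

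Markers of other cells also moved at 6 months, beside the members. Of 8 fibroblast markers 3 were higher and 4 lower (median -0.23), with sums from 976 to 1039 CPM in ST hearts and from 1208 to 1287 CPM in WT hearts. Of 8 endothelial markers 3 were higher and 1 lower (median 0.26), and all 5 erythroid markers were higher (median 0.85). Of 5 immune markers tested, by contrast, 0 passed. The sums of the immune list overlapped, at 54.3 to 83.2 CPM in ST hearts and 59.1 to 73.7 CPM in WT hearts. In ST hearts of 8 over 6 months, 4 fibroblast markers were higher and 3 lower (median 0.13), and 3 endothelial markers were higher and 1 lower (median 0.13). In ST hearts of 8 months over WT hearts of 6 months, 6 of 8 endothelial markers were higher (median 0.49), with sums from 1190.3 to 1248 CPM in ST hearts and from 832 to 1036 CPM in WT hearts. There 1 fibroblast marker was higher and 3 lower (median -0.12), and 2 of 5 immune markers were lower (median -0.45). The part of these markers in the members' changes was not tested.

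Over the 9 libraries of 6 and 8 months, members differed in how closely they followed Tnnt2 in log2 CPM. Pearson's r to Tnnt2 was 0.93 for Tpm1, 0.91 for Tnnc1, 0.83 for Tpm2, 0.80 for Tnni3, 0.40 for Tmod1 and -0.06 for Lmod2, as a description over libraries that share tables and groups. For Tnni1 and Tnnt1, which had few counts, it was -0.33 and -0.34. How r was spread over all genes is not given here. Among 5034 well-counted genes that are no members, the closest were Commd1 (r = 0.98), Ier3ip1 (0.98), Tmem126a (0.96), Emc2 (0.96) and Cdc42 (0.96).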

How the data were processed

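RNA of rat heart was profiled in 13 libraries, in 3 tables of 1 time point each. The values are expected counts as deposited by the authors, mostly whole numbers, with no scaling between samples. Neither labels nor headers name the tool that made them. As builds, the submitters' processing notes name GRCm38 and mm10, which are of mouse, although gene names are those of rat. Samples were grouped by the labels.

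Expected counts were rounded. Each comparison used its own libraries, genes kept by filterByExpr (minimum count 10), TMM scaling and edgeR's quasi-likelihood test (version 4.0.16, R 4.3.3; two-sided), with Benjamini-Hochberg adjustment over all genes tested and a threshold of 0.05. "Rose" and "fell" are used of genes past it. The SE is the absolute log2 fold change over the square root of F, and 95% intervals of a log2 fold change are normal intervals from that SE, which are narrow for so few libraries. For the difference of effects, names in both tables were fitted with 4 group means. Transgene levels used library totals. Shares and transgene ratios were tested by exact permutation over samples (scipy 1.17.1); counting intervals are exact, and like the floor of 3 counts, from 0.266 to 0.639 CPM, cover counting error only. Replicates differed beyond sampling noise in every pair (chi-square per gene from 1.93 to 12.1). The procedure was tested on simulated data.

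Named genes were the 9 members, from each list up to 4 genes past the threshold with the smallest p in each comparison (not all are printed), and the 5 genes most like Tnnt2 by Pearson's r among genes of at least 5 mean log2 CPM (prior count 2). Members and lists were chosen with earlier results of these data known. Alternatives were RLE size factors, library size only, no filter, a filter of 5 CPM, DESeq2 1.42.0, limma-voom (3.58.1), a replicate block, one fit over all 5 groups, leaving out mitochondrial and haemoglobin genes, leaving out each library, and, chosen after seeing the data, scaling by cardiomyocyte markers. Protein sequences and transcript lengths were not used here, so levels are not compared between genes.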

Additional observations from a re-analysis of the deposited data

Results flagged for a closer look

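For 4 members the ST effect at 6 months differed from that at 2 months by edgeR's interaction term, on the log2 scale (6 months minus 2 months, ST over WT in each). The difference was 0.92 for Lmod2, 0.65 for Tpm1, 0.62 for Tnnt2 and 0.48 for Tnnc1. Of these, the effect within 6 months was past the threshold for Lmod2 (0.58), Tpm1 (0.31) and Tnnt2 (0.27), and the effect within 2 months was not past it for any of them (-0.35, -0.36 and -0.36). The tables of the 2 time points differ in kind, with Ttn at 8.09% to 9.99% of counts at 2 months and at 0.437% to 0.550% later; the part of this in the difference was not tested.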

How the results depend on the processing

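At 2 months 582 genes and 1 member were called. Without a filter 1019 genes were, with DESeq2 359 and 0 members, with a filter of 5 CPM 0 members, in one fit over all 5 groups 1237 genes and 4 members, and with scaling by cardiomyocyte markers 4 members. Leaving out each library gave 271 (without WT replicate 1) to 2013 genes (without ST replicate 2) and 0 to 3 members. At 6 months 4 members became 7 with scaling by cardiomyocyte markers, and the interaction's 4 became 7. In ST hearts of 8 against 6 months 5 members became 3 in one fit over all groups, 2 with scaling by cardiomyocyte markers, and 3 to 5 with a library left out. The interaction's 2811 genes became 1558 (without WT replicate 1 of 2 months) to 3197 with a library left out. The cause of these shifts was not tested.

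Signs turned only for values not past the threshold. At 2 months, scaling by cardiomyocyte markers gave Tpm2 -0.11 and Tmod1 -0.062. With a library left out, Tnni3 ran from -0.34 to 0.080 (0.080 without ST replicate 1) and Tpm2 from -0.28 (without WT replicate 2) to 0.44, with -0.096 without ST replicate 1. At 6 months Tnni3 was -0.059 with library size only. In ST hearts of 8 against 6 months Tpm2 ran from -0.082 (without ST replicate 1 of 8 months) to 0.29, with -0.025 without ST replicate 2 of 6 months. In the interaction Tnni1 was 0.10 with scaling by cardiomyocyte markers and ran from -0.97 to 0.12 with a library left out (0.098, 0.068, 0.087 and 0.12 without ST replicates 1 and 3 and WT replicate 3 of 6 months and ST replicate 1 of 2 months), and Tnni3 ran from -0.035 (without ST replicate 1 of 2 months) to 0.38.

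Library size only put the median of all genes at 6 months at -0.12 on the log2 scale, with 1731 of 5445 calls higher, against 2643 of 5305; in ST hearts of 8 against 6 months 3072 of 5212 were higher, against 2464 of 5115, and over WT hearts 1880 of 4736, against 2329 of 4441. Scaling by cardiomyocyte markers put that median at -0.13 at 2 months, 0.15 at 6 months and 0.28 in the interaction, with 192 of 701, 4132 of 5830 and 3187 of 3885 calls higher, and gave 1644 of 4932 and 2662 of 4271 at 8 months over ST and WT hearts of 6 months. Tnnt2, Tpm1, Tpm2 and Lmod2 at 6 months stayed past the threshold in the same direction under both.

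The labels do not say that replicate numbers pair samples, and same-numbered samples' deviations correlated by -0.02 to 0.33, not above 0.1 in every pair. With the replicate block, calls were 636, 5435, 5427, 4652 and, for the interaction, 2677; the members called were 1, 6, 5, 5 and 5, with Tnnc1 (adjusted p = 0.0246, edgeR) and Tmod1 (0.0442) added at 6 months and Tpm2 (0.0316) in the interaction. Depth limits Tnni1 and Tnnt1 the most, at 2 to 26 counts a library.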
